A study of Mus musculus with 16 samples.

Results

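The 10 genes of the cone phototransduction cascade were followed in retinas of mice null for Gtf2ird1, which encodes a DNA-binding protein related to TFII-I. They were taken by symbol, from a list drawn up with earlier results of these data known, and all 10 were among the 20259 genes measured: the transducin subunits Gnat2, Gnb3 and Gngt2, the phosphodiesterase subunits Pde6c and Pde6h, the channel subunits Cnga3 and Cngb3, the arrestin Arr3, the exchanger Slc24a2 and the potassium channel subunit Kcne2. RNA was extracted with Trizol from 16 single retinas, and 1 Affymetrix Mouse Exon 1.0 array was used for each. The 4 groups held 4 biological replicates each: Gtf2ird1 null (titled BEN-NULL) at 2 weeks, age-matched wild type (WT) at 2 weeks, Gtf2ird1 null at 4 months and WT at 4 months. One label gives the older age as 2 months; the titles' 4 months is used here. The labels name no strain, sex or allele structure.

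In a cone, light activates an opsin, the opsin activates transducin, and transducin relieves the inhibition of a phosphodiesterase that breaks down cyclic GMP. Channels held open by cyclic GMP then close and the cell hyperpolarises, while a sodium-calcium-potassium exchanger removes calcium and arrestin caps the activated opsin. Rods run the same steps with their own set of genes. Mouse cones are a small minority of the retina's photoreceptors, so that transcripts of these genes come from few of the cells in each sample. In whole retina, fewer cones and less RNA per cone cannot be told apart.

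RefSeq promoter windows (build GRCm38.p6, the 250 bases before a transcript start) were found for 6 of the 10 genes. GTF2IRD1 protein binds GGATTA, which is the reverse complement of TAATCC, the core site of the photoreceptor factor CRX. Both were searched on both strands, with the shorter core TAAT or ATTA, which also lies inside them. The windows of the 3 genes called lower in null retinas at 2 weeks are printed, with Gnat2 as the 1 gene whose window held the longer site; capitals mark each copy of these motifs.
Pde6h, chr6:136954273-136954522, plus strand: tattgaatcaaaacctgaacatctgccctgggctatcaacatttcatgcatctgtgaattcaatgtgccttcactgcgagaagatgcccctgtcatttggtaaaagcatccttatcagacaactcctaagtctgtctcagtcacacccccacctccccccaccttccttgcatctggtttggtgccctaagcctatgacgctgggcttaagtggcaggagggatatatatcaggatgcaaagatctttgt
Kcne2 upstream start, chr16:92292139-92292388, plus strand: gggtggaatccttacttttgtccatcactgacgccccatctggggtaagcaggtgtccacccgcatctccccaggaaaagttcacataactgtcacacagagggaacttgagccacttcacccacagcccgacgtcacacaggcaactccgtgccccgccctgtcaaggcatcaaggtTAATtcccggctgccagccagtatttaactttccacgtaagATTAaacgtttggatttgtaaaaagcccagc
Kcne2 downstream start, chr16:92295366-92295615, plus strand: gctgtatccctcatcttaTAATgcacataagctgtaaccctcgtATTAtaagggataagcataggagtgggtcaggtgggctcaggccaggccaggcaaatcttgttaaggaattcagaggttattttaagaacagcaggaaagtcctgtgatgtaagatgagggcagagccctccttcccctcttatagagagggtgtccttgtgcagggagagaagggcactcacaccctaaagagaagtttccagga
Arr3, chrX:100605247-100605496, plus strand: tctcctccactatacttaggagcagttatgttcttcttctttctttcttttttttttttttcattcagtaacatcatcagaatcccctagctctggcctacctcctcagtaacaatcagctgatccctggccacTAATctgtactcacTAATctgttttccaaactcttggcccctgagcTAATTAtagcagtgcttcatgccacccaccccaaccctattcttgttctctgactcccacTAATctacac
Gnat2, chr3:108092816-108093065, plus strand: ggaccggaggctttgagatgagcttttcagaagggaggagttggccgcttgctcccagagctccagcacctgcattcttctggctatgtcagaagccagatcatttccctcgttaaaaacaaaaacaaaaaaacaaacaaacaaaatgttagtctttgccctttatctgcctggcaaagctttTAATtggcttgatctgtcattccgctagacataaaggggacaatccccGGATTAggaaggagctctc

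The Gnat2 window held 1 GGATTA and, counting the core within it, 2 short cores. The Pde6h window held neither the long site nor the core. Arr3 had 5 short cores, some overlapping, and each Kcne2 window had 2, with no long site in either gene. Of all 32851 windows, 6.25% held TAATCC or GGATTA and 54.9% held TAAT or ATTA. A match in these letters is a description and not a bound site.

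Each value is a log2 signal of 1 probe set, meaning a transcript cluster of the array, and levels are compared between samples and not between genes. A gene was called when its limma p-value, adjusted over all 20259 genes by Benjamini-Hochberg, was under 0.05. Median signals per array ran from 5.31 to 5.55, and precision is limited by having 4 arrays in a group. The targeted gene averaged 4.71 to 5.02 in null and 8.62 to 9.16 in WT at 2 weeks on 3 of its 4 probe sets, and 4.71 to 5.06 in null and 8.95 to 9.45 in WT at 4 months; the null means lay below every array median, so no fold is given. Its probe set 7008782, the one with the highest mean, differed by 0.17 and 0.03 on the log2 scale. Replicate 1 of WT at 2 weeks stood apart: it was the lowest of its group for 8 of the 10 genes, and its mean distance from the other 3 arrays of its group was 0.320 on the log2 scale, against 0.132 to 0.215 for the other arrays. Xist signal was present in 3 WT arrays (replicates 1 and 4 at 2 weeks, replicate 4 at 4 months) and in 0 null arrays. Lens markers were higher in null at 2 weeks for 9 of 9 measured genes, with summed linear signals of 18482 to 53222 in null and 7327 to 25065 in WT, although 0 were called by limma and 5 had an unadjusted p under 0.05, a threshold that 12.5% of all genes passed at 2 weeks and 5.37% at 4 months. Pigment epithelium markers summed to 1430 to 2667 in null and 703 to 2040 in WT at 2 weeks; 8 of 9 were higher in null (median log2 difference 0.79), 2 were called and 6 had an unadjusted p under 0.05. Bipolar markers summed to 4917 to 6058 in null and 4380 to 4860 in WT at 2 weeks, without overlap, and 0 of 6 were called by limma, with 3 at an unadjusted p under 0.05. The 2 measured blood markers were lower in null at 2 weeks (median -1.05), and both had an unadjusted p under 0.05 with 0 limma calls. Rod markers summed to 37943 to 41808 in null and 35241 to 42775 in WT, and cone markers, which include 6 of the 10 genes, to 18475 to 20260 in null and 17796 to 22776 in WT. The 2 cone opsins alone gave 13574 to 14398 of this sum in null and 12985 to 14383 in WT. Of the 8 cone markers, 5 were lower and 3 higher in null at 2 weeks (median log2 difference -0.21). Among them 2, Pde6h and Arr3, were called lower, and 5 had an unadjusted p under 0.05 in either direction. Horizontal cell markers summed to 6999 to 8545 in null and 5947 to 7099 in WT at 2 weeks, where 3 were higher and 2 lower in null. Of the 5, 0 were called and 3 had an unadjusted p under 0.05. At 4 months all 5 were lower in null, with 0 called and 2 at an unadjusted p under 0.05. Fits with a lens covariate or a sex covariate are given beside the calls they bear on. The part of the pigment epithelium, bipolar, horizontal cell and blood markers in the results was not tested.

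**Figure D1:**
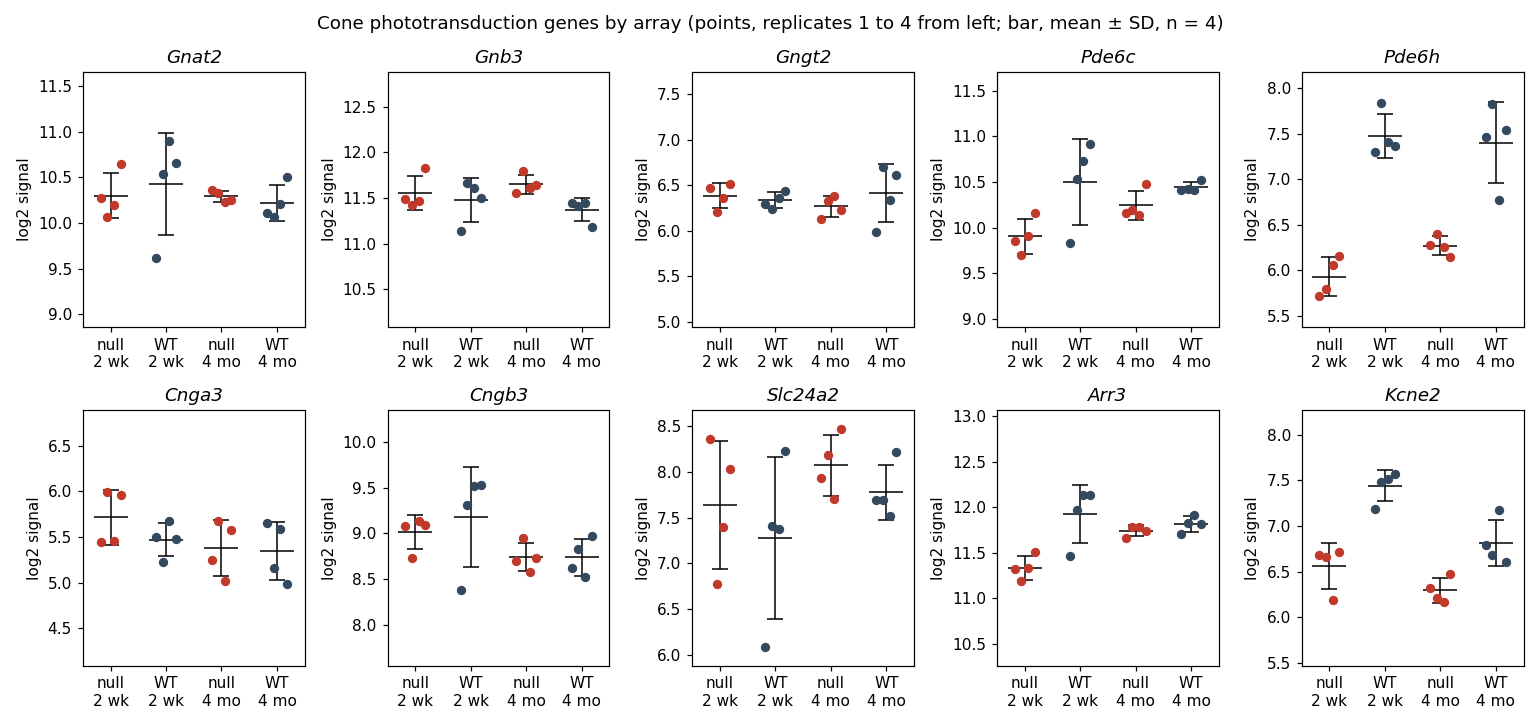
Log2 signal of the 10 genes on each of the 16 arrays, in the 4 groups (null and WT at each age), with 1 point per array. For Pde6h the null arrays sit between 5.72 and 6.40 over both ages and the WT arrays between 6.77 and 7.83.

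The first comparison asked which of these genes differed between null and WT retinas at 2 weeks. Pde6h, Kcne2 and Arr3 were lower in null retinas, by 2.91-fold, 1.84-fold and 1.51-fold, and the other 7 were not called. Thus 0 of 10 rose and 3 fell, or 2 of 9 without Kcne2, which is not a step of the cascade. Over all genes, 1.06% were called in either direction and 0.425% were called lower; since the list was drawn up with earlier results known, this share is given as a background and the count is no independent evidence. The median log2 difference was -0.15 for the 10 genes and -0.02 for all genes. At 4 months Pde6h alone was called, 2.19-fold lower in null, where 0.41% of all genes were called and 0.183% were called lower. The median was then -0.04 for the 10 genes. At 2 weeks 2 of the 10 genes had all null arrays below all WT arrays and 0 had all above, where 5.82% of all genes had non-overlapping groups; at 4 months the counts were 2 and 1, and the share over all genes was 4.73%.

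**Figure D2:**
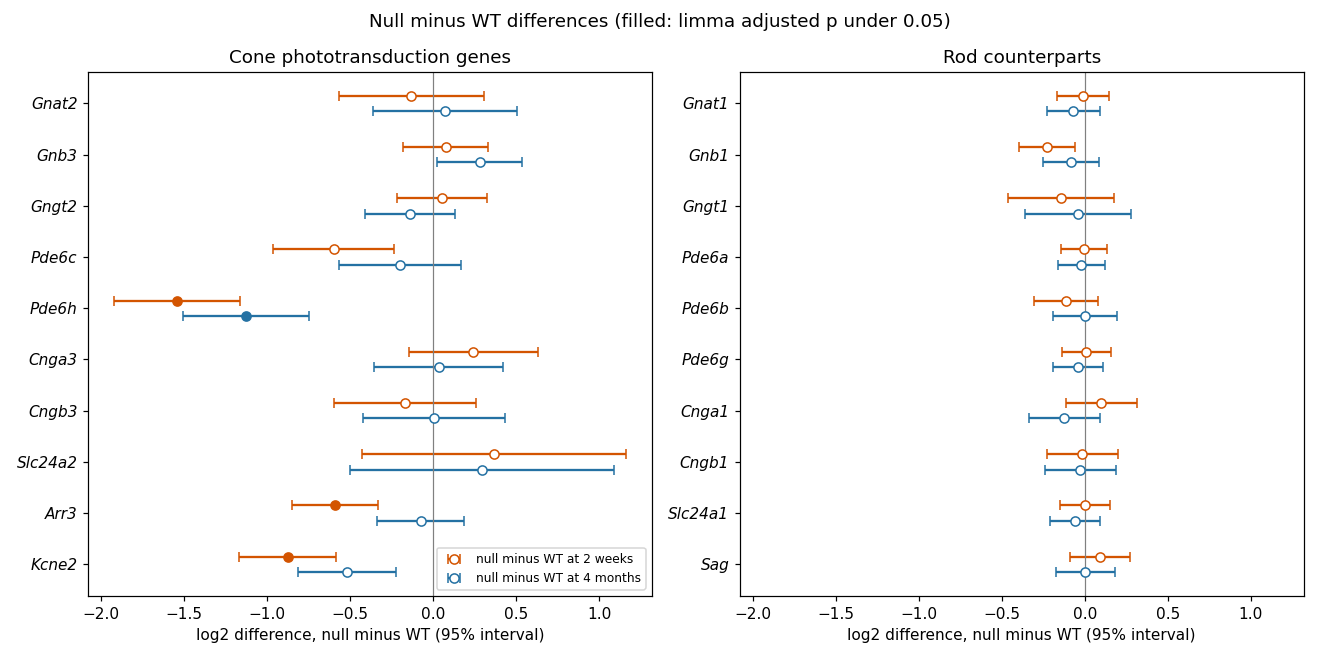
Log2 difference, null minus WT, for each gene at 2 weeks and at 4 months, with the 95% interval of the limma fit; filled points were called. Pde6h lies at -1.54 at 2 weeks and -1.13 at 4 months, and the intervals of 5 genes include 0 at both ages.

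Transducin passes the signal from opsin to phosphodiesterase, and none of its 3 cone subunits was called. Gnat2, the cone alpha subunit, read 10.28, 10.06, 10.20 and 10.64 in null retinas at 2 weeks, against 9.62, 10.53, 10.90 and 10.66 in WT retinas. At 4 months it read 10.36, 10.33, 10.24 and 10.25 in null and 10.11, 10.06, 10.20 and 10.50 in WT. The groups overlapped at both ages, and the widest spread was in WT at 2 weeks, where replicate 1 was lowest. The log2 difference was -0.13 (95% interval -0.57 to 0.31, limma adjusted p = 0.835) at 2 weeks and 0.07 (-0.36 to 0.51) at 4 months.

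Gnb3, the beta subunit of cones, which ON bipolar cells also use, read 11.49, 11.43, 11.46 and 11.83 in null at 2 weeks, against 11.13, 11.67, 11.61 and 11.50 in WT. At 4 months its null arrays read 11.55, 11.80, 11.61 and 11.64, and its WT arrays 11.44, 11.41, 11.45 and 11.18. All null arrays were then above all WT arrays, by 0.28 on average (95% interval 0.03 to 0.53), with an exact permutation p of 0.0286, the smallest that 4 against 4 arrays can give, but with a limma adjusted p of 0.805. Bipolar markers at 4 months summed to 4649 to 5192 in null and 4392 to 5056 in WT, and their part in the Gnb3 values was not tested. Gngt2, the cone gamma subunit, lay between 6.20 and 6.51 in null and 6.24 and 6.44 in WT at 2 weeks. Its difference was 0.05 (-0.22 to 0.32) at 2 weeks and -0.14 (-0.41 to 0.13) at 4 months. The groups of Gngt2 overlapped at both ages.

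The cone phosphodiesterase is made of the catalytic subunit Pde6c and the inhibitory subunit Pde6h, which transducin displaces. Pde6h read 5.72, 5.79, 6.06 and 6.16 in null retinas at 2 weeks, against 7.29, 7.83, 7.41 and 7.36 in WT retinas. At 4 months it read 6.28, 6.40, 6.26 and 6.15 in null and 7.47, 7.82, 6.77 and 7.54 in WT. Every null array was below every WT array at both ages. The null values at 2 weeks lay near the array medians of 5.31 to 5.55, so the fold given for that age is approximate. The log2 difference at 2 weeks was -1.54 ± 0.18 (SE, 95% interval -1.92 to -1.16), with a limma adjusted p of 0.00038 and an exact permutation p of 0.0286. At 4 months it was -1.13 (-1.51 to -0.75), with a limma adjusted p of 0.00629 and an exact permutation p of 0.0286. The call held at both ages in each of the 28 alternatives. Differences ran from -1.69 to -1.42 at 2 weeks and from -1.34 to -0.99 at 4 months. The alternatives include the same fit read at an adjusted p under 0.1, which cannot lose a call. Leaving out an array of the other age also leaves a null minus WT difference unchanged and alters only the pooled spread.

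Pde6c read 9.85, 9.70, 9.91 and 10.16 in null retinas at 2 weeks, against 9.84, 10.53, 10.72 and 10.92 in WT retinas. WT replicate 1, the array that stood apart, was the only WT value that lay within the null range. The difference was -0.60 (95% interval -0.97 to -0.23), with a limma adjusted p of 0.124, an unadjusted p of 0.00318 and an exact permutation p of 0.114. Without WT replicate 1 it was -0.82 and was called (limma adjusted p = 0.00184), in a fit that called 525 of all genes against 214. Pde6c was called in 3 of the 28 alternatives. With the lens covariate the difference was -0.45 (limma adjusted p = 0.527), and with median centring it was -0.54 (limma adjusted p = 0.289). At 4 months Pde6c read 10.16, 10.19, 10.14 and 10.48 in null and 10.41, 10.42, 10.41 and 10.52 in WT, a difference of -0.20 (-0.57 to 0.17) that was not called.

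The cyclic GMP-gated channel of cones is built from Cnga3 and Cngb3, and neither was called. The Cnga3 probe set averaged 5.35 to 5.72 in the 4 groups, near the array medians of 5.31 to 5.55, so that a difference in this gene could be missed. It averaged 5.72 ± 0.30 in null and 5.47 ± 0.18 in WT at 2 weeks (SD, n = 4 each), a difference of 0.24 (-0.14 to 0.63, limma adjusted p = 0.617). At 4 months it averaged 5.38 ± 0.31 in null and 5.35 ± 0.32 in WT. Cngb3, the modulatory subunit, read 9.08, 8.73, 9.14 and 9.10 in null at 2 weeks, against 8.38, 9.31, 9.52 and 9.52 in WT. The WT values fell on both sides of the null values, with replicate 1 lowest. The difference was -0.17 (-0.60 to 0.26, limma adjusted p = 0.770) at 2 weeks and 0.0050 (-0.42 to 0.43) at 4 months.

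Slc24a2, the sodium-calcium-potassium exchanger taken here for cones, which other neurons also express, was measured by 3 probe sets. Its probe set with the highest mean, 6927576, read 8.36, 6.78, 7.39 and 8.03 in null at 2 weeks, against 6.08, 7.40, 7.37 and 8.23 in WT. These arrays spread more widely than those of the other 9 genes, and the groups overlapped. The difference was 0.37 (-0.43 to 1.16, limma adjusted p = 0.724) at 2 weeks and 0.30 (-0.50 to 1.09) at 4 months. Without WT replicate 1 the 2-week difference was -0.03. Probe set 6923083 differed by 0.29 at 2 weeks (exact permutation p = 0.143) and by 0.17 at 4 months (exact permutation p = 0.0571). Probe set 6927575 differed by -0.15 (exact permutation p = 0.971) and 0.28 (exact permutation p = 0.0857), so that the mean differences did not share a sign at 2 weeks. This probe set averaged 4.84 to 5.13 in the 4 groups, below every array median. In WT at 2 weeks it read 6.23 in replicate 1 and 4.57, 4.79 and 4.93 in the others. The group medians at 2 weeks were 5.01 in null and 4.86 in WT.

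Arr3, the cone arrestin, is encoded on the X chromosome. It read 11.32, 11.19, 11.33 and 11.50 in null retinas at 2 weeks, against 11.47, 11.97, 12.13 and 12.14 in WT retinas. Of the WT arrays, replicate 1 alone fell within the null range. The difference was -0.59 ± 0.12 (SE, 95% interval -0.85 to -0.33), with a limma adjusted p of 0.0283 and an exact permutation p of 0.0571. The call was the least stable of the 3 and was lost in 9 of 28 alternatives. Among them were median centring of the arrays (-0.54, limma adjusted p = 0.141) and a covariate for the lens markers (-0.50, limma adjusted p = 0.226). Without WT replicate 1 the difference was -0.74 (limma adjusted p = 0.000246), and with a sex covariate it was -0.66 (limma adjusted p = 0.0435).

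At 4 months Arr3 read 11.66, 11.79, 11.78 and 11.74 in null and 11.71, 11.83, 11.91 and 11.81 in WT. The groups overlapped, and the difference was -0.08 (-0.34 to 0.19), which was not called.

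Kcne2 encodes an accessory subunit of voltage-gated potassium channels and is the 1 gene of the 10 that is not a step of the cascade. It read 6.68, 6.66, 6.19 and 6.72 in null retinas at 2 weeks, against 7.19, 7.49, 7.51 and 7.57 in WT retinas. The groups did not overlap. The difference was -0.88 ± 0.14 (SE, 95% interval -1.17 to -0.58), with a limma adjusted p of 0.00511 and an exact permutation p of 0.0286. Of the 28 alternatives, the lens covariate alone ended the call (-0.74, limma adjusted p = 0.0652).

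At 4 months Kcne2 read 6.32, 6.21, 6.17 and 6.47 in null and 6.79, 6.68, 7.17 and 6.61 in WT. Every null array was again below every WT array. The difference of -0.52 (-0.81 to -0.23) had an exact permutation p of 0.0286 and an unadjusted p of 0.00175, but a limma adjusted p of 0.193. It is therefore given as a value and not as a call.

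**Figure D3:**
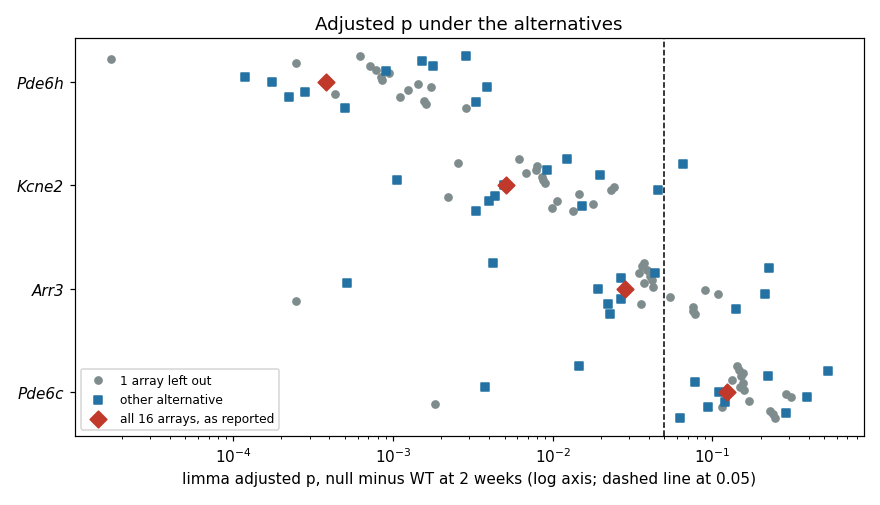
Limma adjusted p of the null minus WT difference at 2 weeks for Pde6h, Kcne2, Arr3 and Pde6c, on a log axis, with the dashed line at 0.05; diamonds are the fit as reported, grey points leave out 1 array and squares are the other alternatives. Every Pde6h point lies under 0.05, 1 Kcne2 point and 9 Arr3 points of 28 lie above it, and 3 Pde6c points lie under it.

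Whether the null effect differed between the ages was tested as the difference of the 2 effects, 4 months minus 2 weeks. None of the 10 genes was called by limma, where 0.00987% of all genes were called. Of the 10, 1 gene, Arr3, had an unadjusted p under 0.05, as did 1199 of all 20259 genes. For Arr3 the difference of the effects was 0.52 (95% interval 0.15 to 0.88, unadjusted p = 0.00888, limma adjusted p = 0.622). Without WT replicate 1 of 2 weeks it was 0.67 and was called (limma adjusted p = 0.0449). For Pde6h it was 0.41 (-0.12 to 0.95, limma adjusted p = 0.905) and for Kcne2 0.36 (-0.06 to 0.77, limma adjusted p = 0.882). A smaller effect at 4 months was thus not shown for either gene.

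The change with age was then compared within each genotype. These comparisons share arrays with those above. Tissue markers also moved with age. In null retinas 9 of 9 pigment epithelium markers were lower at 4 months (median log2 difference -0.94, 4 called). All 9 lens markers were lower as well (median -1.46, 1 called). In WT retinas the medians were -0.14 for pigment epithelium (1 called) and -0.04 for lens (0 called). The part of the pigment epithelium markers in the age results was not tested. In WT retinas 1 of the 10 genes fell, Kcne2, and 0 rose, where 9.19% of all genes were called and 4.81% were called lower. In null retinas 1 rose, Arr3, and 0 fell, where 9.61% of all genes were called and 3.71% were called higher. Counts of 1 in 10 lie near these shares.

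Kcne2 averaged 6.81 ± 0.25 in WT retinas at 4 months and 7.44 ± 0.17 at 2 weeks (SD, n = 4 each), without overlap. The difference was -0.63 (95% interval -0.92 to -0.33), with a limma adjusted p of 0.00995. In null retinas it was -0.27 and was not called (limma adjusted p = 0.273). Arr3 averaged 11.7 ± 0.06 in null retinas at 4 months and 11.3 ± 0.13 at 2 weeks, and all 4-month arrays were above all 2-week arrays. Its difference was 0.41 (0.15 to 0.67, limma adjusted p = 0.0475), a call lost in 15 of 28 alternatives. With the lens covariate it was 0.33 and not called (limma adjusted p = 0.204), and with the sex covariate 0.40 (limma adjusted p = 0.0494). In WT retinas the Arr3 difference was -0.11 (limma adjusted p = 0.648).

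Pde6h was not called with age in WT retinas (-0.07, -0.45 to 0.31, limma adjusted p = 0.857) or in null retinas (0.34, -0.04 to 0.72, limma adjusted p = 0.286). Cngb3 was 0.45 lower at 4 months in WT retinas on the log2 scale (-0.45, -0.87 to -0.02), with a limma adjusted p of 0.192. Without WT replicate 1 of 2 weeks, Cngb3 (-0.71, limma adjusted p = 0.00229) and Gnat2 (-0.48, limma adjusted p = 0.0286) were called lower at 4 months in WT.

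**Figure D4:**
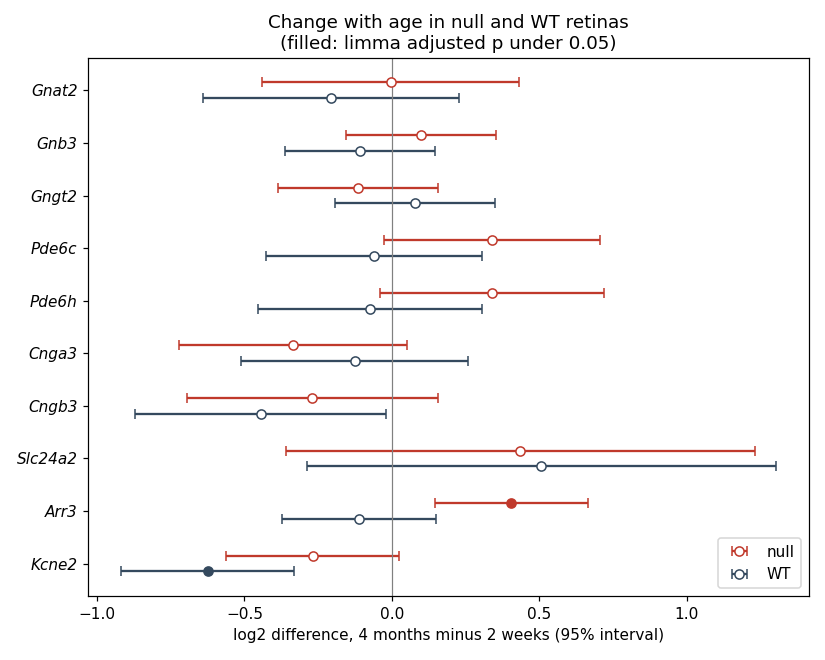
Log2 difference, 4 months minus 2 weeks, for each gene in null and in WT retinas, with the 95% interval of the limma fit; filled points were called. Kcne2 in WT (-0.63) and Arr3 in null (0.41) are the 2 filled points.

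The rod genes for the same steps gave a comparison within the same samples. Of 10 rod counterparts, 0 were called by limma at either age; 1 had an unadjusted p under 0.05 at 2 weeks and 0 at 4 months. On the probe set with the highest mean, their differences ran from -0.23 to 0.10 at 2 weeks and from -0.12 to 0.0036 at 4 months. A further probe set of Cnga1, the rod channel subunit (6927456), averaged 11.1 in null and 11.5 in WT at 2 weeks, without overlap (-0.32, exact permutation p = 0.0286), against 0.10 on its chosen one. Pde6g, the rod inhibitory subunit that corresponds to Pde6h, differed by 0.0094 at 2 weeks (limma adjusted p = 0.972) and by -0.04 at 4 months. Sag, the rod arrestin that corresponds to Arr3, differed by 0.09 (limma adjusted p = 0.688) and 0.0036.

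Of 16 genes for shut-off and cyclic GMP turnover that rods and cones share or that act beside the cascade, 1 rose in null at 2 weeks and 0 fell, where 0.632% of all genes were called higher. It was Slc24a4, a potassium-dependent sodium-calcium exchanger like Slc24a2 but outside the 10 genes, at 0.45 (limma adjusted p = 0.0187). At 4 months 0 were called by limma and 1 had an unadjusted p under 0.05. Neither cone opsin was called at either age, with 2 unadjusted p under 0.05 at 2 weeks and 1 at 4 months. Opn1sw, the short-wavelength opsin, was 0.30 higher in null at 2 weeks (limma adjusted p = 0.102), with every null array above every WT array. At 4 months it was 0.09 higher and the groups overlapped. Opn1mw, the medium-wavelength opsin, differed by -0.30 at 2 weeks (limma adjusted p = 0.0752) and by -0.24 at 4 months. Its null arrays were all below its WT arrays at both ages. Groups did not overlap for 5.82% of all genes at 2 weeks and 4.73% at 4 months. Of 14 measured genes in a cone identity list, 0 were called by limma at either age, with 6 and 4 at an unadjusted p under 0.05. Over all genes that share was 12.5% at 2 weeks and 5.37% at 4 months. The list is not confined to cones, since it also holds the rod marker Nrl and the photoreceptor factor Crx.

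The genes most like Pde6h across the 16 arrays were found by Pearson correlation after the mean of each age had been subtracted. They were Ercc5 (r = 0.93), Lrrc66 (0.92), Cdcp3 (0.92), Dnah9 (0.91) and Pla2r1 (0.90). The points share the arrays and the split into null and WT, so that any gene lower in null correlates in this way. Ercc5, an endonuclease of nucleotide excision repair, differed by -1.72 at 2 weeks and -1.16 at 4 months, and Cdcp3 differed by -2.41 and -2.08.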

How the data were processed

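Total RNA of 16 retinas was measured on 1-colour exon arrays. The authors deposited log2 signals for each transcript cluster, made with RMA and Partek on build mm8 according to the submitters' processing notes. No source states the log base, which was taken from the range of the values, 3.76213 to 15.7311. Of 115830 rows, 25539 carried 1 gene symbol; the row with the highest mean stood for each of 20259 genes, without a filter on low signal. A single limma model (version 3.58.1, R 4.3.3, lmFit then eBayes) gave the mean of each of the 4 groups over 16 arrays, leaving 12 residual degrees of freedom, with Benjamini-Hochberg adjustment across all genes. Exact permutation tests of single values were two-sided. P-values measure the spread between the labelled biological replicates.

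The members and lists were chosen with earlier results of these data known. By the rule for named genes all 10 members are given, with their rod counterparts, called genes of the related lists and the 5 genes most like the member with the largest difference. Residuals of same-numbered arrays correlated at -0.281 to 0.23 in 16 pairs, so no pairing by number was seen. A correlation over all genes could miss a pairing that affects few of them. With a replicate block, 148 genes were called at 2 weeks, against 214 without it. The procedure was also run on simulated data with independent noise for each gene and array. That setting held no array that stood apart and no marker differences, so it does not test the calls under those. The labels give no batch.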

Additional observations from a re-analysis of the deposited data

Results flagged for a closer look

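In 6 of 40 sets of 4 arrays (10 genes in 4 groups), 1 array lay far from the other 3 by Dixon's criterion; chance flags about 1 in 20 such sets. In null retinas at 2 weeks, Gnb3 was highest in replicate 4 (11.8), Cngb3 lowest in replicate 2 (8.73) and Kcne2 lowest in replicate 3 (6.19). In null retinas at 4 months, Pde6c was highest in replicate 4 (10.5). In WT retinas at 4 months, replicate 4, 1 of the 3 arrays with Xist signal, was lowest for Gnb3 (11.2) and highest for Pde6c (10.5). The cause of these values was not tested.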

How the results depend on the processing

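Over 28 alternatives, the 3 members called at 2 weeks became 1 with the lens covariate, which was chosen after seeing the data, 2 with median centring or only the arrays compared, and 4 with array weights or without the 3 WT arrays with Xist signal (also chosen after seeing the data); with single arrays left out they were 2 to 4. The count for the difference between the ages was 0, and 1 with array weights and 0 to 1 with single arrays left out. In WT with age it was 1, and 3 with array weights, 3 without those 3 WT arrays and 1 to 3 with single arrays left out. In null with age it was 1, and 0 with quantile normalization, median centring or the lens covariate, 2 without the 3 WT arrays and 0 to 1 with single arrays left out. With a replicate block the counts were 3 at 2 weeks, 1 at 4 months, 0 for the difference between the ages, 1 in WT and 1 in null with age, so it changed no count of members. Over all genes the 214 called at 2 weeks became 43 with only the arrays compared, 66 with the lens covariate, 122 with the sex covariate, 134 with median centring, 148 with the replicate block and 491 with array weights. Without WT replicate 1 of 2 weeks they became 525 (321 of them lower, against 86), and without WT replicate 3 of 2 weeks 77, the highest and lowest with single arrays left out; without null replicate 1, 2 or 3 they became 91, 138 and 112, and without WT replicate 4, 112. The split of 128 higher and 86 lower became 103 and 31 with median centring. The 83 called at 4 months became 53 with median centring, 200 with array weights and 50 to 126 with single arrays left out (126 without WT replicate 1 of 2 weeks, 50 and 54 without null replicate 3 or 4 of 4 months).

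Sign changes came only in uncalled differences, 37 in all. Gnb3 at 2 weeks was -0.014 with array weights, -0.066 with the sex covariate and -0.087 without the 3 WT arrays, and with age in null it was -0.0056 after quantile normalization. Cnga3 at 4 months was -0.016, -0.013 and -0.085 in the same 3 fits, and with age in WT 0.014 without the 3 WT arrays. Cngb3 at 4 months was -0.0077 after quantile normalization, -0.057 with array weights and -0.026 with the sex covariate. The Slc24a2 difference between the ages was 0.081 as the mean over its probe sets and 0.19 without the 3 WT arrays. With single arrays left out, the ranges that crossed 0 were -0.40 to 0.027 (Gnat2, 2 weeks), -0.082 to 0.11 (Gnat2, age in null), -0.039 to 0.14 (Gnb3, 2 weeks), -0.018 to 0.22 (Gngt2, age in WT), -0.28 to 0.079 (Pde6c, age in WT), -0.21 to 0.14 (Pde6h, age in WT), -0.085 to 0.15 (Cnga3, 4 months), -0.068 to 0.085 (Cngb3, 4 months), -0.029 to 0.69 (Slc24a2, 2 weeks) and -0.39 to 0.33 (Slc24a2, between the ages). The Arr3 call at 2 weeks was lost without null replicate 1, 2 or 3 or WT replicate 2, 3 or 4 of that age (limma adjusted p up to 0.109). The cause of these changes was not tested.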

Other observations

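The genes next to the 3 members called at 2 weeks, chosen after their values were seen, gave 0 limma calls among 12 genes at either age, with 2 at an unadjusted p under 0.05 at 2 weeks and 1 at 4 months. Beside Pde6h, Arhgdib differed by -0.51 in null minus WT at 2 weeks (limma adjusted p = 0.241), Erp27 by -0.29, Rerg by -0.16 and Ptpro by -0.07. Beside Arr3 the differences ran from -0.32 (P2ry4) to 0.41 (Pdzd11), and beside Kcne2 they ran from -0.29 (Itsn1) to 0.0045 (Slc5a3).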
